A study of Mus musculus with 4 samples.

Results

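Ubiquitin ligases attach ubiquitin to other proteins and thereby mark them for degradation, for sorting to lysosomes or for altered signalling. In T cells the CBL proteins, ITCH, GRAIL (gene Rnf128) and Pellino-1 (gene Peli1) are known for restraining signals from the T cell receptor, and mice without Cblb or Itch develop autoimmune or inflammatory disease. The ligase CHIP (gene Stub1) and the deubiquitinase USP7, which removes ubiquitin, are known to act in opposite ways on the stability of FOXP3, the lineage transcription factor of regulatory T cells.

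The transcripts described here are those of 10 such genes, chosen by name from the gene rows of the deposited count table, 10 of 52636 rows. They are the RING and U-box ligases Cbl, Cblb, Rnf128, Peli1 and Stub1, the HECT ligases Itch, Nedd4 and Nedd4l, the adaptor Ndfip1 and the deubiquitinase Usp7. RNA was sequenced from sorted CD4+CD62L+CD25bright regulatory T cells of C57BL/6 mice aged 7 weeks. There were 2 libraries labelled Vav1R63WThemis1-T-/-, written as the Themis1-T-/- label below, and 2 labelled Vav1R63W, with replicates numbered 2 and 3 in each group. Both groups carry the R63W knock-in allele of Vav1, a signalling protein downstream of the T cell receptor, and neither has a wild-type Vav1. By their labels the groups differ by the deletion of Themis1 (gene Themis), another protein of that pathway. The driver of the deletion, and whether a library came from 1 animal or from pooled animals, are not given in the sources used here, and p-values therefore measure only the spread between these libraries, which may be technical.

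The libraries held 13963670 to 15953194 reads assigned to genes. Themis had 685 and 0 reads under the Themis1-T-/- label, replicates 2 and 3, against 283 and 97 reads under the Vav1R63W label. The targeted gene thus goes against the label of Themis1-T-/- replicate 2, and each difference below is between labels and is also given without that library for the tested members and for those named genes of other lists whose value it moves most, as a ratio. Gene-level reads check a deletion only where the deleted exons carry them. Foxp3 stood at 1014 and 737 CPM (reads per 1000000 reads assigned to genes) under the Themis1-T-/- label, against 904 and 636 CPM under the Vav1R63W label. All 8 markers of regulatory T cells had reads, while 4 of 8 B cell markers, 6 of 8 monocyte and macrophage markers, 4 of 6 dendritic cell markers, 2 of 6 CD8 T cell markers and 2 of 6 NK and innate lymphoid markers had no read in any library. The most abundant of these markers were Ighm and Cd79b, Ctss and Cybb, Cst3 and Zbtb46, Cd8b1 and Prf1, and Nkg7 and Gata3, and of the conventional CD4 T cell list Tcf7 and Lef1. Summed levels did not overlap between labels for 4 of the 7 lists, beside 33.8% of the single genes tested below. The B cell, monocyte and macrophage, and dendritic cell sums came mostly from Ighm, Ctss and Cst3, at mean levels of 1232, 846 and 270 CPM. Higher under the Themis1-T-/- label were the B cell list at 1312 to 1370 CPM under the Themis1-T-/- label, against 1180 to 1303 CPM under the Vav1R63W label, and the monocyte and macrophage list at 840.0 to 1018 CPM under the Themis1-T-/- label, against 753 to 822 CPM under the Vav1R63W label. Lower were the conventional CD4 T cell list at 1479 to 1605 CPM under the Themis1-T-/- label, against 1616 to 1832 CPM under the Vav1R63W label, and the dendritic cell list at 238.0 to 275.9 CPM under the Themis1-T-/- label, against 276.4 to 305.7 CPM under the Vav1R63W label. Ms4a1 and Pax5 of B cells and Csf1r, Adgre1 and Cd68 of macrophages were among those at 0. The B cell marker Cd79b stood at 35.5 and 62.7 CPM under the Themis1-T-/- label, against 58.3 and 63.6 CPM under the Vav1R63W label. Cybb had 0 and 220 reads under the Themis1-T-/- label, against 261 and 243 reads under the Vav1R63W label. The part of other cells in the results below was not tested.

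Across the whole table the edgeR quasi-likelihood test called 0 of 10216 tested genes (0%) at an adjusted p under 0.05, with 509 (4.98%) at an unadjusted p under 0.05. limma-voom likewise called 0 genes, and 483 (4.73%) lay under 0.05 before adjustment. DESeq2 called 206 of 10748 genes (1.92%), and the authors' deposited table calls 123 of 7865 (1.56%). The spread between replicates was wide: 3131 tested genes (30.7%) had replicates of a group at least 10-fold apart. With 2 libraries against 2, an exact two-sided permutation test cannot give a p below 0.333.

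The edgeR test covered 9 of the 10 genes and called 0 of them, with 1, Cbl, at an unadjusted p under 0.05. Cbl was the member with the lowest and Usp7 the member with the highest level under the Themis1-T-/- label relative to the Vav1R63W label among those with reads in all 4 libraries. The groups did not overlap for 3 of the 9, Cbl (lower) and Stub1 and Usp7 (higher), beside 33.8% of all tested genes (15.1% higher and 18.7% lower). Leaving out 1 library makes overlap less likely by construction: 8 of the 9 did not overlap without Themis1-T-/- replicate 2 (73.1% of tested genes), 7 without Themis1-T-/- replicate 3 (66.7%), 5 without Vav1R63W replicate 2 (63%) and 3 without Vav1R63W replicate 3 (61%). The fitted log2 fold change was positive for 8 of the 9, beside 50.1% of tested genes. Without Themis1-T-/- replicate 2, Peli1, Nedd4 and Nedd4l turned negative beside Cbl, while Cblb, Stub1, Itch, Ndfip1 and Usp7 stayed positive. With all 4 libraries the median log2 fold change of the 9 was 0.37, beside 0.00 over all tested genes. That median was 0.07 without Themis1-T-/- replicate 2, 0.91 without Vav1R63W replicate 2 and 0.08 without Vav1R63W replicate 3.

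**Figure D1:**
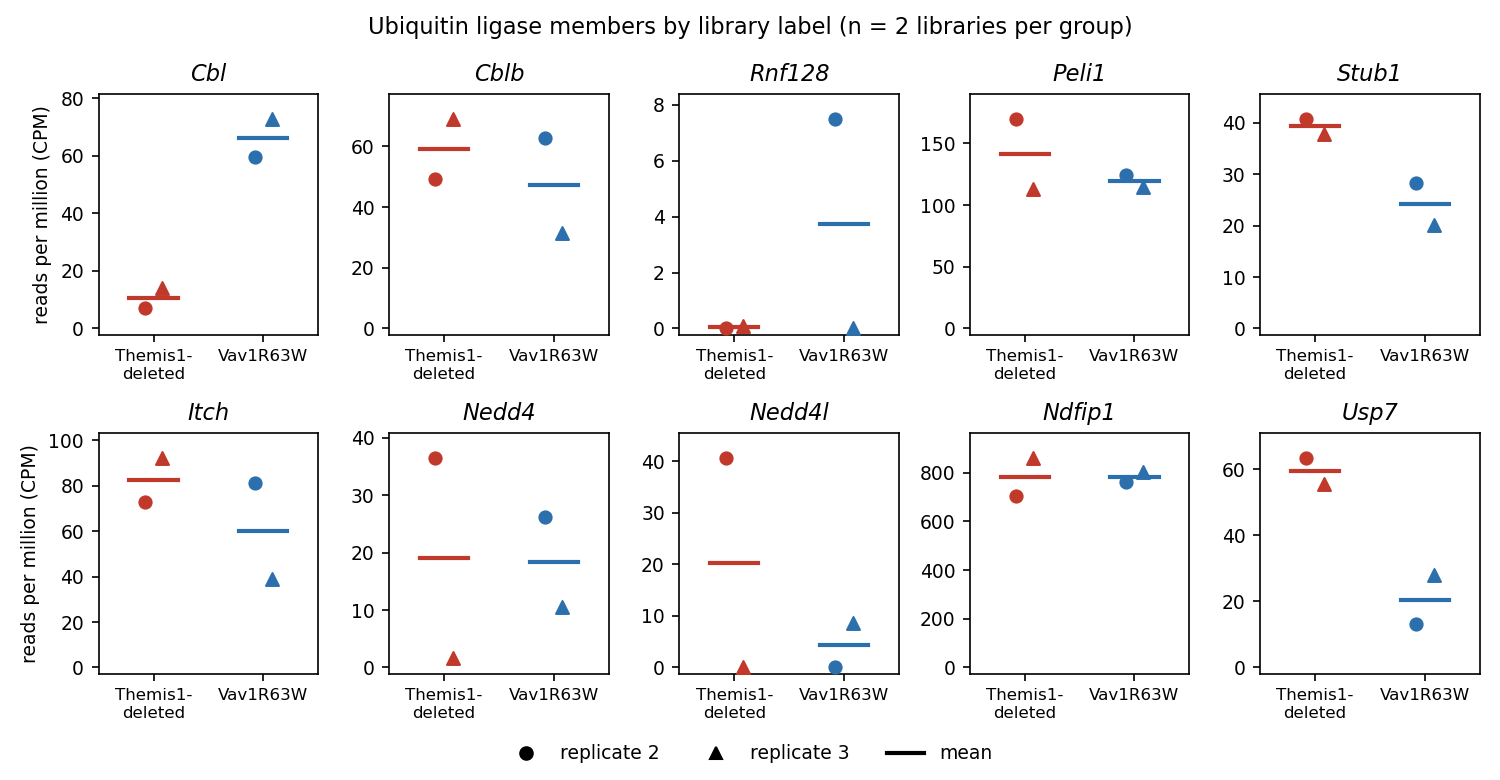
Level of each of the 10 genes in reads per 1000000 assigned reads (CPM, vertical axis, linear from 0), with the Themis1-T-/- label at the left of each panel (red) and the Vav1R63W libraries at the right (blue); circles are replicate 2, triangles replicate 3 and bars the mean of 2 libraries. Cbl lies at 7.21 and 14.2 CPM under the Themis1-T-/- label and at 59.6 and 72.9 CPM under the Vav1R63W label, and Usp7 stands the other way round.

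Cbl (ENSMUSG00000034342, GRCm38 chromosome 9, 44142976 to 44234049, minus strand) encodes c-CBL, a RING ligase that binds tyrosine-phosphorylated receptors and kinases and promotes their down-regulation. It had 115 and 198 reads under the Themis1-T-/- label, replicates 2 and 3, against 835 and 1050 reads under the Vav1R63W label. These counts correspond to 10.7 ± 4.93 CPM under the Themis1-T-/- label and 66.3 ± 9.40 CPM under the Vav1R63W label (SD, n = 2 each), 6.20-fold lower. Both libraries with the Themis1-T-/- label lay far below both Vav1R63W libraries, and replicates differed by at most 1.97-fold within a group. The log2 fold change was -2.60 ± 0.68 (SE, edgeR unadjusted p = 0.0163, adjusted p = 0.900). DESeq2 called the gene (adjusted p = 0.0369), and it was the 1 member among the 121 genes (1.13%) that DESeq2 called lower. In the authors' deposited table Cbl has a log2 fold change of -1.55 and an adjusted p of 0.00483, and that table calls 65 of 7865 genes (0.826%) lower. limma-voom gave -2.74 (adjusted p = 0.821). Fitted without Themis1-T-/- replicate 2, the difference was -2.18, and without each other library in turn it lay between -3.20 and -2.42 (edgeR adjusted p from 0.457 to 1.000 over the 4 fits). In bulk RNA such a difference between labels cannot be told apart into fewer cells that express the gene and less RNA per cell.

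The promoters of Cbl and Usp7 are shown because these genes had the smallest edgeR p of the 9 tested. The sequences are the parts of the RefSeq promoter windows (GRCm38.p6) that lie upstream of the transcription start and outside annotated exons, 5′ to 3′ on the gene's strand: chr9:44234050-44234296 for Cbl and chr16:8738421-8738592 for Usp7, both on the minus strand. The Usp7 stretch lies inside the longer span that GENCODE gives that gene. RefSeq windows were at hand for 7 of the 10 genes. Capitals mark matches on either strand to the letters GGGNNNNNCC (a loose NF-kB motif), GCGNGGGCG (EGR), GGAAA (NFAT core) and GGGCGG (GC box).
Cbl: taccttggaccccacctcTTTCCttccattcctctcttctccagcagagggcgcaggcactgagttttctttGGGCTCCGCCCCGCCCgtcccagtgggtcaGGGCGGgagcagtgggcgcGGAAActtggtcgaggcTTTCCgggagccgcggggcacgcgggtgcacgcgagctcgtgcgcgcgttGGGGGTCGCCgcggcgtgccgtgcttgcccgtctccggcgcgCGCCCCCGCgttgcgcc
Usp7: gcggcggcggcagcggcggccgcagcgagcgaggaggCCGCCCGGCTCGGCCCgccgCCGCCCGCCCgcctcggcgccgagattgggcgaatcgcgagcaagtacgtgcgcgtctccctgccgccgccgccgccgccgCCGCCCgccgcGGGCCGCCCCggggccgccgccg
The Cbl stretch, 71.3% G or C, held 3 matches to the NF-kB letters and 3 to the GC box, of each of which 2 overlap another match, 1 match to EGR and 3 to NFAT. In the same stretch of 32841 promoter windows the NF-kB letters were found in 45.3% of windows, the GC box in 32.4%, EGR in 4.61% and NFAT in 55.2%. The Usp7 stretch, 86.6% G or C, held 2 matches to the NF-kB letters, 1 of them overlapping another match, and 5 to the GC box, 3 of them overlapping another. It held 0 matches to EGR and 0 to NFAT. Over that stretch the NF-kB letters were found in 31.8% of windows, the GC box in 19.8%, EGR in 2.27% and NFAT in 44.2%. A match describes letters and is not evidence of binding.

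Cblb (ENSMUSG00000022637, chromosome 16, 52031225 to 52208048, plus strand) encodes CBL-B, the paralog that sets the need for CD28 costimulation in T cells. It stood at 49.2 and 69.1 CPM under the Themis1-T-/- label, against 62.7 and 31.5 CPM under the Vav1R63W label. The groups overlapped, with Vav1R63W replicate 3 the lowest library. Its log2 fold change, 0.37 ± 0.56 (SE, edgeR adjusted p = 1.000), was -0.03 without Vav1R63W replicate 3 and 0.60 without Themis1-T-/- replicate 2. Taken per kilobase of exon, Cbl made up 11.1% and 14.8% of the summed level of Cbl and Cblb under the Themis1-T-/- label, against 44.7% and 66.2% under the Vav1R63W label. The sum of both per kilobase was 5.28 and 7.75 CPM under the Themis1-T-/- label and 10.8 and 8.92 CPM under the Vav1R63W label. The groups overlapped neither in the share nor in the sum, but both include Cbl, whose own groups did not overlap, whereas those of Cblb did. Among all tested genes, 33.8% had groups that did not overlap.

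**Figure D2:**
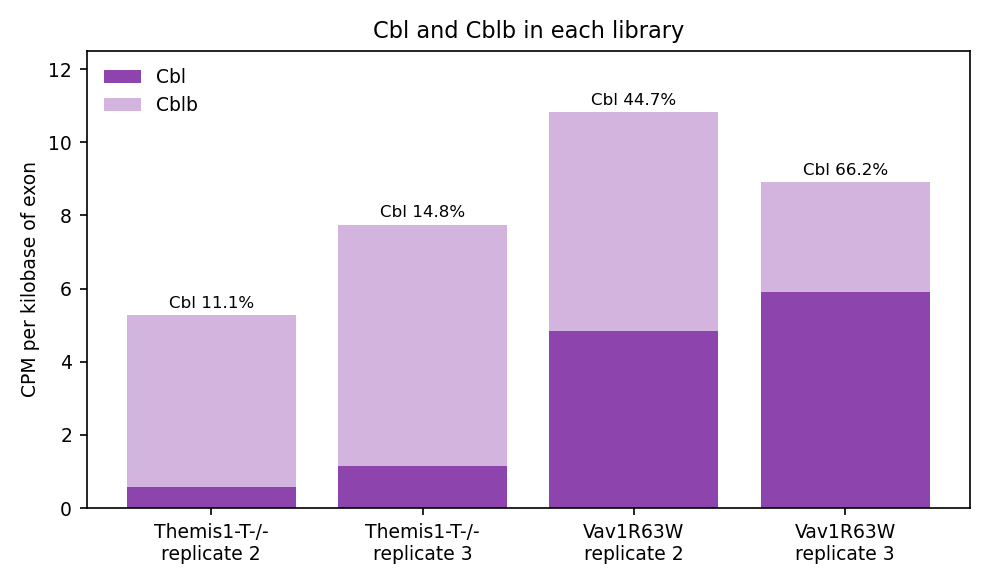
Summed level of Cbl (dark) and Cblb (light) per kilobase of exon (vertical axis, CPM per kilobase, linear from 0) in each library, with the 2 libraries of the Themis1-T-/- label at the left and the 2 Vav1R63W libraries at the right. The share of Cbl is written above each bar and is 11.1% and 14.8% under the Themis1-T-/- label, against 44.7% and 66.2% under the Vav1R63W label.

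Peli1 (ENSMUSG00000020134, chromosome 11, 21091291 to 21150323, plus strand), a RING ligase that in mouse T cells targets the NF-kB subunit c-Rel, was at 170.1 and 113 CPM under the Themis1-T-/- label, against 125 and 115 CPM under the Vav1R63W label. Of the 4 libraries Themis1-T-/- replicate 2 stood apart as the high one. With it the difference was 0.26 ± 0.30 on the log2 scale (SE, edgeR adjusted p = 1.000), and without it -0.04. Rnf128 (ENSMUSG00000031438, chromosome X, 139563316 to 139673145, plus strand), which encodes GRAIL, a ligase of endosomal membranes linked to T cell anergy, had 0 and 1 reads under the Themis1-T-/- label, against 105 and 0 reads under the Vav1R63W label. All but 1 of its reads thus came from Vav1R63W replicate 2, and the gene did not reach the minimum for testing. The ratio of its summed counts, Vav1R63W label over Themis1-T-/- label and scaled by library totals, was 111 (exact 95% binomial interval 19.4 to 4410), an interval of counting error only.

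Stub1 (ENSMUSG00000039615, chromosome 17, 25830505 to 25833404, minus strand), the U-box ligase CHIP that works with heat shock chaperones and targets FOXP3, was at 40.8 and 37.9 CPM under the Themis1-T-/- label, against 28.2 and 20.1 CPM under the Vav1R63W label. The groups did not overlap, and the log2 fold change was 0.73 ± 0.63 (SE, edgeR unadjusted p = 0.308, adjusted p = 1.000) and 0.69 without Themis1-T-/- replicate 2. Its exons share 1084 bases, 42.3% of their length, with Jmjd8, a protein-coding gene on the opposite strand. The column without strand holds 1865 reads of Stub1 over the 4 libraries, beside 5826 in the sum of the 2 strand columns. In that sum Stub1 had 1840 and 1818 reads under the Themis1-T-/- label, against 1208 and 960 under the Vav1R63W label. The sum gave a log2 fold change of 0.72 (edgeR unadjusted p = 0.0701, adjusted p = 1.000), and reads of Stub1 and Jmjd8 cannot be told apart in it.

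Itch (ENSMUSG00000027598, chromosome 2, 155133509 to 155226855, plus strand) encodes a HECT ligase of the NEDD4 family that in mice targets the transcription factor JUNB. It was at 73.0 and 92.4 CPM under the Themis1-T-/- label, against 81.2 and 38.8 CPM under the Vav1R63W label. As with Cblb, Vav1R63W replicate 3 was the lowest library and the groups overlapped. On the log2 scale the difference was 0.50 ± 0.50 (SE, edgeR adjusted p = 1.000), 0.08 without Vav1R63W replicate 3, 1.09 without Vav1R63W replicate 2 and 0.67 without Themis1-T-/- replicate 2. Per kilobase of exon, Itch made up 57.2% and 98.4% of the summed level of Itch, Nedd4 and Nedd4l under the Themis1-T-/- label, against 77.8% and 73.4% under the Vav1R63W label, and was the most abundant of these HECT ligases in all 4 libraries.

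Nedd4 (ENSMUSG00000032216, chromosome 9, 72662346 to 72749852, plus strand), the founding member of that family, had 583 and 24 reads under the Themis1-T-/- label, against 366 and 151 reads under the Vav1R63W label. The libraries with the Themis1-T-/- label were its highest and its lowest, 21.3-fold apart in CPM, so the group means of 19.1 ± 24.6 CPM under the Themis1-T-/- label and 18.3 ± 11.1 CPM under the Vav1R63W label (SD, n = 2 each) hide that spread. Its fitted difference was 0.07 ± 1.65 on the log2 scale (SE, edgeR adjusted p = 1.000) and -3.35 without Themis1-T-/- replicate 2. Nedd4l (ENSMUSG00000024589, chromosome 18, 64887705 to 65217828, plus strand), its paralog, best known for control of ion channels, had 649 and 0 reads under the Themis1-T-/- label, against 0 and 124 reads under the Vav1R63W label. Each group thus held 1 library with reads and 1 with none, and the log2 fold change of 2.22 ± 3.76 (SE, edgeR adjusted p = 1.000) turned to -8.93 without Themis1-T-/- replicate 2. The antisense gene A330084C13Rik shares 277 bases, 1.57%, of its exons, and reads there cannot be told apart by strand. Among all tested genes, 17.2% likewise had 100 or more reads in 1 library and at most 1 in another.

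Ndfip1 (ENSMUSG00000024425, chromosome 18, 38410396 to 38465303, plus strand), a membrane adaptor that recruits and activates ITCH and other NEDD4 family ligases, had the smallest SE of the 9 tested genes. It stood at 704 and 862 CPM under the Themis1-T-/- label, against 764 and 802 CPM under the Vav1R63W label. The Vav1R63W libraries lay between those with the Themis1-T-/- label, and its log2 fold change was close to 0, at 0.03 ± 0.16 (SE, edgeR adjusted p = 1.000). Leaving out 1 library at a time gave -0.16 to 0.18, the highest without Themis1-T-/- replicate 2.

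Usp7 (ENSMUSG00000022710, chromosome 16, 8689595 to 8792308, minus strand), a deubiquitinase that stabilises FOXP3 and MDM2 among others, had 1012 and 774 reads under the Themis1-T-/- label, against 184 and 401 reads under the Vav1R63W label. These are 59.4 ± 5.66 CPM under the Themis1-T-/- label and 20.5 ± 10.4 CPM under the Vav1R63W label (SD, n = 2 each), 2.90-fold higher. The lower library with the Themis1-T-/- label was at 55.4 CPM and the higher Vav1R63W library at 27.9 CPM, so the groups stood clear of each other. The log2 fold change was 1.55 ± 0.65 (SE, edgeR unadjusted p = 0.0715, adjusted p = 1.000), 1.47 without Themis1-T-/- replicate 2, and 1.09 to 2.22 over the 4 fits that leave out 1 library. DESeq2 did not call it (unadjusted p = 0.0388, adjusted p = 0.537), and its adjusted p in the authors' deposited table is 0.2265.

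**Figure D3:**
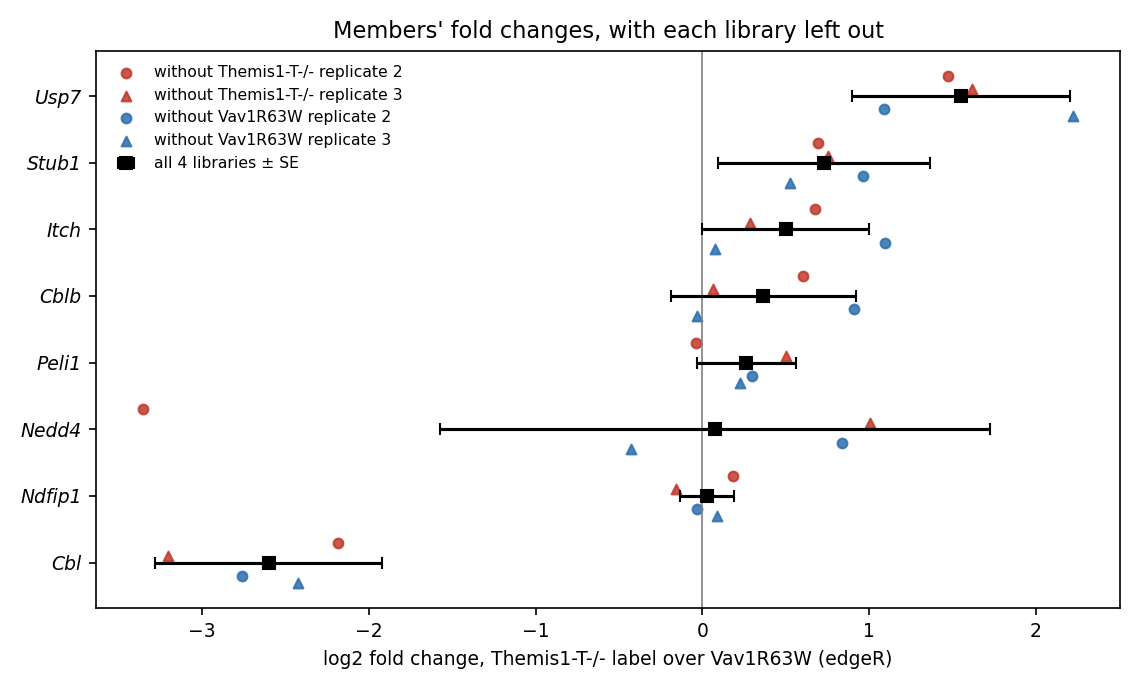
Log2 fold change between labels, Themis1-T-/- over Vav1R63W (horizontal axis, edgeR), for the 8 members with reads in all 4 libraries; black squares with bars are the fit of all libraries ± SE, red symbols the fits without a library of the Themis1-T-/- label and blue symbols those without a Vav1R63W library. All points of Cbl lie at -2.18 or below and all points of Usp7 at 1.09 or above, while points of Cblb, Peli1, Nedd4 and Ndfip1 lie on both sides of 0.

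Levels between genes were set side by side per kilobase of exon. By the median over the 4 libraries the order was Ndfip1 (124 CPM per kilobase), Peli1 (18.3), Stub1 (12.9), Itch (7.94), Usp7 (5.36), Cblb (5.34), Cbl (2.99), Nedd4 (1.67), Nedd4l (0.244) and Rnf128 (0.0103). The adaptor Ndfip1, at 111 to 136 CPM per kilobase, and Peli1, at 17.3 to 26.0, each lay above the next gene in all 4 libraries with no overlap of ranges. For Peli1 the next gene is Stub1, whose exons share 42.3% of their bases with Jmjd8. Reads on shared bases drop out of the column without strand, while the full exon length was used. This Stub1 level is therefore too low, and the order of Peli1 and Stub1 is uncertain. From Stub1 downward the range of each gene over the 4 libraries overlapped that of the next, so neighbours in this part of the order did not differ beyond their spread over the libraries. Set side by side within a library, Stub1 was still above Itch, and Nedd4 above Nedd4l, in 4 of 4 libraries, and the other neighbours kept their order in 2 or 3 of 4. With the sum of the strand columns Stub1 reached 36.0 CPM per kilobase and Peli1 16.65, which exchanges these neighbours, and Cblb, at 4.89, came before Usp7, at 4.87. Within a library the place of Cbl moved. It lay below Itch in both libraries with the Themis1-T-/- label, at 0.584 beside 7.51 and at 1.15 beside 9.52 CPM per kilobase. In Vav1R63W replicate 2 it was below Itch too, at 4.83 beside 8.36, and only in Vav1R63W replicate 3 above, at 5.91 beside 3.99.

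**Figure D4:**
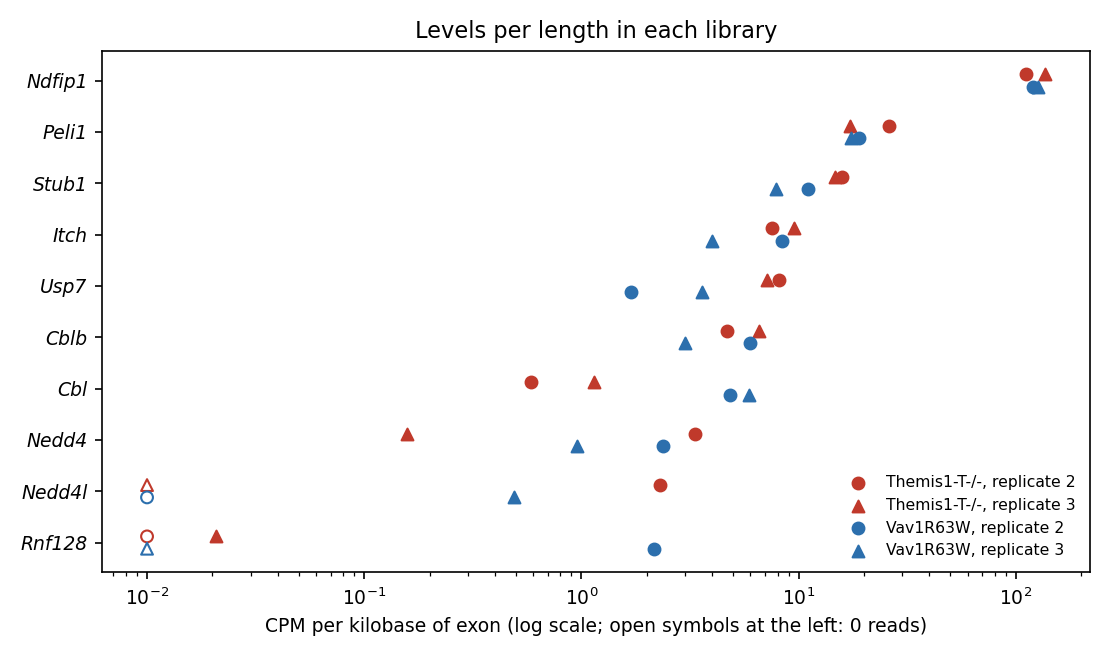
Level of each gene per kilobase of exon (horizontal axis, CPM per kilobase, log scale) in the 4 libraries, ordered by median; red symbols are the libraries with the Themis1-T-/- label, blue the Vav1R63W libraries, circles replicate 2 and triangles replicate 3, and open symbols at the left edge stand for 0 reads. Ndfip1 lies at 111 to 136 CPM per kilobase, apart from the rest, and the 4 points of Nedd4, Nedd4l and Rnf128 are widely scattered.

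The rest of the ubiquitin pathway was read from 6 further lists holding 109 genes in all. In these lists 0 genes passed the edgeR test, and DESeq2 called 2 of them, 1 lower and 1 higher (Cd247), beside the 1.13% and 0.791% of all genes that it called lower and higher. The authors' deposited table also calls 1 lower and 1 higher, beside 1.56% of all 7865 genes with an adjusted p there, 0.826% being lower. Other HECT ligases and the second NDFIP adaptor had a median log2 fold change of -0.37 over 9 tested genes, 4 positive and 5 negative, beside 0.00 over all tested genes. Ndfip2, the paralog of Ndfip1, was at 65.2 and 52.8 CPM under the Themis1-T-/- label, against 134 and 94.5 CPM under the Vav1R63W label (log2 -0.93 ± 0.35, SE, edgeR adjusted p = 1.000). The groups did not overlap for Ndfip2, while those of Ndfip1 did. Of the 9 tested genes of this list, groups did not overlap for 2 higher and 2 lower, beside 15.1% and 18.7% of all tested genes. Wwp1, a NEDD4 family ligase, had 37 and 15 reads under the Themis1-T-/- label, against 43 and 211 under the Vav1R63W label, and Huwe1, a large HECT ligase, was at 35.7 and 40.4 CPM under the Themis1-T-/- label, against 25.6 and 15.9 CPM under the Vav1R63W label.

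Other RING and SCF ligases had a median of -0.26 over 25 tested genes, 11 positive and 14 negative. Rnf31, the catalytic subunit HOIP of the linear ubiquitin ligase complex that acts in NF-kB signalling, had 319 and 95 reads under the Themis1-T-/- label, against 1010 and 763 under the Vav1R63W label (log2 -2.21 ± 0.78, SE, edgeR unadjusted p = 0.0445, adjusted p = 0.976). Leaving out 1 library moved this difference between -3.15, without Themis1-T-/- replicate 2, and -1.65, without Themis1-T-/- replicate 3. Trim28, a corepressor with a RING domain, was at 54.9 and 21.3 CPM under the Themis1-T-/- label, against 112 and 104 CPM under the Vav1R63W label, a log2 fold change of -1.49 that was -2.30 without Themis1-T-/- replicate 2 and -0.98 without Themis1-T-/- replicate 3. Cul3, a scaffold of cullin ligases, was at 133 and 117 CPM under the Themis1-T-/- label, against 90.9 and 63.0 CPM under the Vav1R63W label. The groups did not overlap for these 3 genes, and none of them passed edgeR, limma-voom or DESeq2. They were named for the smallest edgeR p of the list, which favours such genes. Of the 25 tested, groups did not overlap for 1 higher and 5 lower, beside 15.1% and 18.7% of all tested genes.

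Deubiquitinases other than Usp7 had a median of 0.00 over 19 tested genes, 10 positive and 9 negative. Usp4 was at 323 and 226 CPM under the Themis1-T-/- label, against 199.7 and 228 CPM under the Vav1R63W label, and Usp18, an interferon-induced enzyme that removes ISG15, at 160.5 and 57.0 CPM under the Themis1-T-/- label, against 143 and 279.6 CPM under the Vav1R63W label. Usp8, an endosomal deubiquitinase, had 778 and 1 reads under the Themis1-T-/- label, against 19 and 21 under the Vav1R63W label, so its log2 fold change of 4.11 rested on Themis1-T-/- replicate 2 and was -4.10 without it. The groups overlapped for these 3 genes. Of the 19 tested, groups did not overlap for 2 higher and 2 lower, beside 15.1% and 18.7% of all tested genes. Usp4 had a log2 fold change of 0.38 and Usp18 of -0.95, which were 0.13 and -1.85 without Themis1-T-/- replicate 2.

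Proteins that bind CBL ligases had a median of 0.14 over 14 tested genes, 8 positive and 6 negative. Sla, which encodes SLAP, an adaptor that brings CBL to the T cell receptor, was at 252 and 246 CPM under the Themis1-T-/- label, against 207 and 162 CPM under the Vav1R63W label. Sh3kbp1, which encodes the CBL-interacting adaptor CIN85, was at 339.9 and 256 CPM under the Themis1-T-/- label, against 409.5 and 383 CPM under the Vav1R63W label. The log2 fold change of Sh3kbp1 was -0.39, and -0.58 without Themis1-T-/- replicate 2. Sla and Sh3kbp1 passed none of the 3 tools, with groups that did not overlap. Of the 14 tested genes of this list, groups did not overlap for 3 higher and 3 lower, beside 15.1% and 18.7% of all tested genes.

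Proteins reported as substrates of the 10 had a median of -0.05 over 18 tested genes, 8 positive and 10 negative. Cd247, the CD3 zeta chain, which CBL ligases are reported to ubiquitinate, was at 284 and 335 CPM under the Themis1-T-/- label, against 103 and 126 CPM under the Vav1R63W label (log2 1.46 ± 0.23, SE, edgeR adjusted p = 0.900, DESeq2 adjusted p = 0.001004). Vav1, reported as a target of CBL ligases, was at 160.5 and 73.5 CPM under the Themis1-T-/- label, against 206 and 253 CPM under the Vav1R63W label, and Arhgdia, reported as a target of GRAIL, at 376 and 431 CPM under the Themis1-T-/- label, against 319.6 and 358 CPM under the Vav1R63W label. For Vav1 the log2 fold change was -0.96, and -1.60 without Themis1-T-/- replicate 2. Groups did not overlap for 3 higher and 1 lower of the 18, beside 15.1% and 18.7% of all tested genes. Ubiquitin genes, E1 and E2 enzymes had a median of 0.13 over 14 tested genes, 8 positive and 6 negative, and 0 at an unadjusted edgeR p under 0.05. For 2 higher and 0 lower of these 14 genes the groups did not overlap, beside the same shares of all tested genes. Among them the conjugating enzyme gene Ube2d2a was at 73.7 and 76.3 CPM under the Themis1-T-/- label, against 51.8 and 51.5 CPM under the Vav1R63W label, the activating enzyme gene Uba1 at 323 and 449 CPM under the Themis1-T-/- label, against 434 and 525 CPM under the Vav1R63W label, and Rps27a at 1093 and 1399 CPM under the Themis1-T-/- label, against 1008 and 1182 CPM under the Vav1R63W label. The log2 fold changes of -0.29 for Uba1 and 0.21 for Rps27a were -0.054 and 0.40 without Themis1-T-/- replicate 2. Reads of Ube2d2a and Rps27a can be shared with near-identical copies, so these 2 levels are uncertain.

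**Figure D5:**
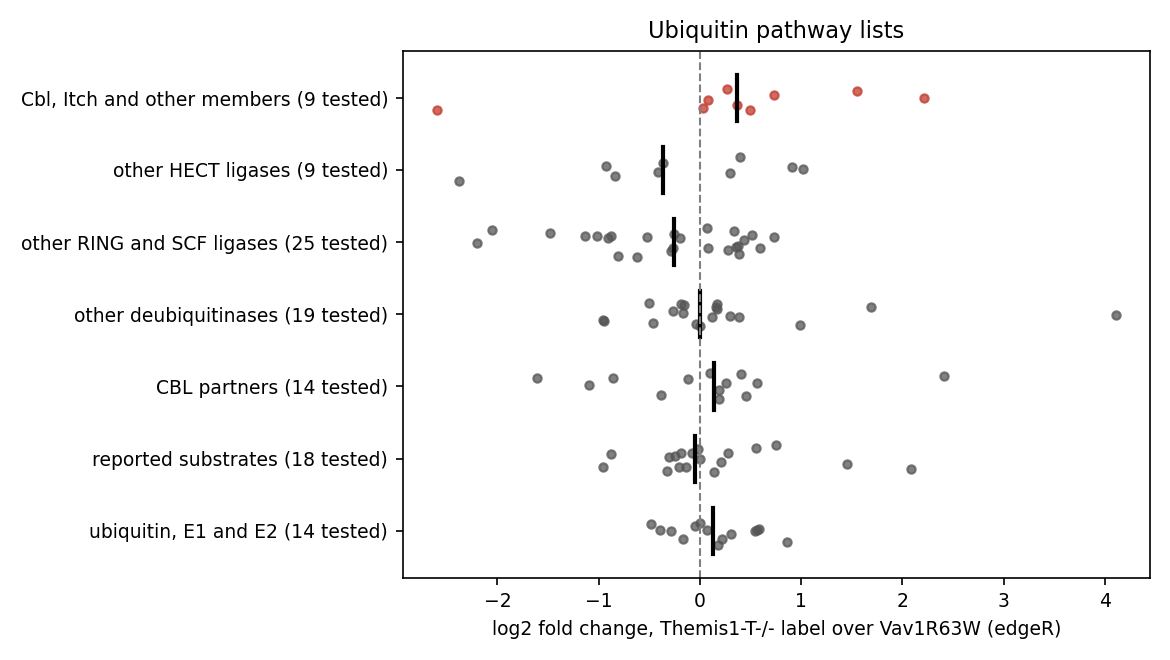
Log2 fold change between labels, Themis1-T-/- over Vav1R63W (horizontal axis, edgeR), of each tested gene in the 7 lists; points are genes, black bars the list medians and the dashed line the median of all tested genes, and 1 gene of the CBL partners is not drawn. The medians run from -0.37 for other HECT ligases to 0.37 for Cbl, Itch and the other members, and points of each list lie on both sides of 0.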

How the data were processed

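RNA of 4 libraries was counted, 2 per genotype, grouped by their titles. Per the submitters' processing notes, the tools were FastQC, Trim Galore, STAR, MultiQC and DESeq2 and the build mm9, while the design text names Ensembl release 90. The deposited files hold raw read counts per gene without strand and per strand. The authors' deposited table holds the same counts with the fold change (a ratio), its log2 value and the p-values of a DESeq2 comparison at a false discovery rate of 0.05. The unstranded count equalled the table for all 52636 genes. The 4 summary lines, 21.1% to 23.1% of reads, were left out. The protocol in the labels names a kit that does not mark strand.

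Symbols were matched for 52403 gene IDs, and GENCODE M21 (GRCm38) gave positions, exon lengths and overlaps by ID. Levels are CPM by library total. The test was edgeR 4.0.16 in R 4.3.3 (TMM, filterByExpr with a minimum count of 10 and total of 15, robust quasi-likelihood F test, two-sided, with genotype alone as a term, Benjamini-Hochberg adjustment over all tested genes), and SE is the log2 fold change over the square root of F. Named are all 10 genes, Themis, Foxp3, of each list the 3 genes with the smallest edgeR p, and of each marker list of other cells the 2 with the highest mean CPM, except 1 gene that is not reported here. The members and lists were chosen with earlier results of these data known. Alternatives were DESeq2 1.42.0, limma-voom (limma 3.58.1), other scalings, filters and count columns, the replicate number as a block, and leaving out each library. The fitted fold changes were checked on simulated counts. How many changed genes the tests can call with 2 libraries per group is not reported here, so a gene not called is not shown to be unchanged.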

Additional observations from a re-analysis of the deposited data

How the results depend on the processing

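edgeR called 0 genes of the whole table, 0 members and 0 genes of the pathway lists under every edgeR alternative, the replicate block (0 each) and leaving out each library (0 to 0) included, and with limma-voom. DESeq2 called 206 genes, 1 member and 2 genes of the pathway lists. The median log2 fold change over the members was 0.073 to 0.91 leaving out 1 library, and 0.42 with the replicate block. Members whose groups do not overlap numbered 3 to 8 leaving out 1 library: 5 without Vav1R63W replicate 2 (63% of all tested genes), 8 without Themis1-T-/- replicate 2 (73.1%), and 7 without Themis1-T-/- replicate 3 (66.7%), since 2 libraries against 1 overlap less often by construction. Of 406 fold changes of 29 named genes under the 14 alternatives, 387 kept direction and call. DESeq2 added 3 calls, among them Cbl and Cd247. A total of 16 turned sign, none of them called. With limma-voom and with the replicate block the log2 fold change was -0.81 and -1.02 for Nedd4 and -3.05 and -2.93 for Themis. Leaving out 1 library, the ranges were -0.031 to 0.91 for Cblb, -0.016 to 0.45 for Foxp3, -0.16 to 0.18 for Ndfip1, -3.35 to 1.00 for Nedd4, -8.93 to 11.21 for Nedd4l, -0.036 to 0.50 for Peli1, -0.008 to 0.40 for Rps27a, -10.55 to 1.68 for Themis and -4.10 to 5.10 for Usp8. The cause was not tested. Deviations of the libraries numbered 2 from their group means correlated at 0.018 across 10216 genes. This value, taken over genes that often had replicates far apart, cannot decide whether the replicate numbers paired the libraries. Genes of few reads and replicates far apart, among them Rnf128, Nedd4 and Nedd4l, allow no firm value at this depth and number of libraries.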
